A study of Bos taurus with 31 samples.

Results

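The exposure contrast takes in every cow of the series: 15 GLY cows were set against 16 CON cows, 31 of 31 liver samples, with the concentrate feed proportion (CFP) as a covariate. Of 24616 genes in the count table, 15916 had at least 20 reads summed over the 31 cows and were tested. The cows were lactating German Holsteins sampled by liver puncture after 16 weeks of feeding. GLY cows ate a total mixed ration carrying glyphosate residues from treated peas, wheat grain and straw, and CON cows ate a control ration. The paper reports that CON cows were also minimally exposed to residues, so the contrast is of higher against low exposure. The groups were GLYHC (8 cows, GLY ration, 60% concentrate), GLYLC (7 cows, GLY ration, 30% concentrate), CONHC (8 cows, control ration, 60% concentrate) and CONLC (8 cows, control ration, 30% concentrate). The GLY ration carried residues of a commercial formulation with co-formulants, so GLY stands for that feed and not for the pure compound, and each cow gave 1 library.

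Glyphosate blocks an enzyme of aromatic amino acid synthesis that plants and many microbes have and that cattle lack. The liver takes up what the gut absorbs, oxidises and conjugates foreign compounds with cytochromes P450, transferases and export pumps, and makes most plasma proteins, bile acids, urea and, in ruminants, glucose from propionate. It also makes cholesterol through the mevalonate pathway, whose genes are driven by the transcription factor SREBP-2 (gene SREBF2) when sterol in the membrane of the endoplasmic reticulum is low.

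No gene passed the test. Of 34 lists of liver functions, that of cholesterol synthesis and uptake had the most members lower in GLY at an unadjusted p under 0.05, 17 of 31, against 1.45% of all genes, and its median log2 fold change was -0.25. Among them were 16 of the 20 enzymes of the pathway, a grouping made after the values were seen, and 19 of the 20 had values below 0, against 48.5% of all genes. With all cows no enzyme passed adjustment over all genes, where the smallest adjusted p of the pathway was 0.590 (quasi-likelihood test of edgeR, adjusted by Benjamini-Hochberg). The lists of the respiratory chain, heme metabolism, peroxisomes, complement and coagulation had 0 members at an unadjusted p under 0.05. The share over all genes was 3.92%, at which short lists can hold none. Acute phase genes had a median log2 fold change of 0.55 on low concentrate and -0.08 on high concentrate, and leaving out 1 cow took the former to 0.36.

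A call required 2 things, an unadjusted p under 0.05 and an adjusted p under 0.1. Of 15916 genes, 0 (0%) were called, and the smallest adjusted p was 0.139. At an unadjusted p under 0.05 there were 394 genes with a higher level in GLY (2.48% of those tested) and 230 with a lower level (1.45%), 624 in all (3.92%). DESeq2 called 1 gene, GABRR2, and limma-voom called 0, and they put 529 and 458 genes under an unadjusted p of 0.05. GABRR2, a subunit of a GABA-gated chloride channel, was at 6.81, 6.75 and 4.50 CPM (a gene's reads scaled to a common total of reads per cow) in 3 GLYHC cows, at 3.51 CPM in a GLYLC cow and at no more than 0.191 CPM in each of the other cows. The median log2 fold change over all tested genes was 0.00, and 48.5% of them had a value below 0. For comparison, the CFP term of the same model gave 231 calls (1.45%), a contrast of calls that was not itself tested.

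The bound on a gene's difference is the larger end, in absolute size, of the 95% interval of its log2 fold change, GLY minus CON. Each interval holds for its gene alone. Among the 11835 genes with a mean of at least 1 CPM, the median bound was 0.26, a 1.197-fold difference, and the median standard error was 0.0961. Of these genes, 10193 (86.1%) were bounded under 0.5 on the log2 scale, which is 1.41-fold, and 11458 (96.8%) under 1, which is 2-fold. Genes above 10 CPM were bounded most closely. The median bound was 1.15 for the 4081 genes under 1 CPM, 0.34 for the 5281 genes from 1 to 10 CPM, 0.21 for the 5504 genes from 10 to 100 CPM and 0.23 for the 1050 genes above that. Intervals widened to hold for all 15916 genes at once left 9730 genes under 1, and none of those intervals left out 0.

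**Figure D1:**
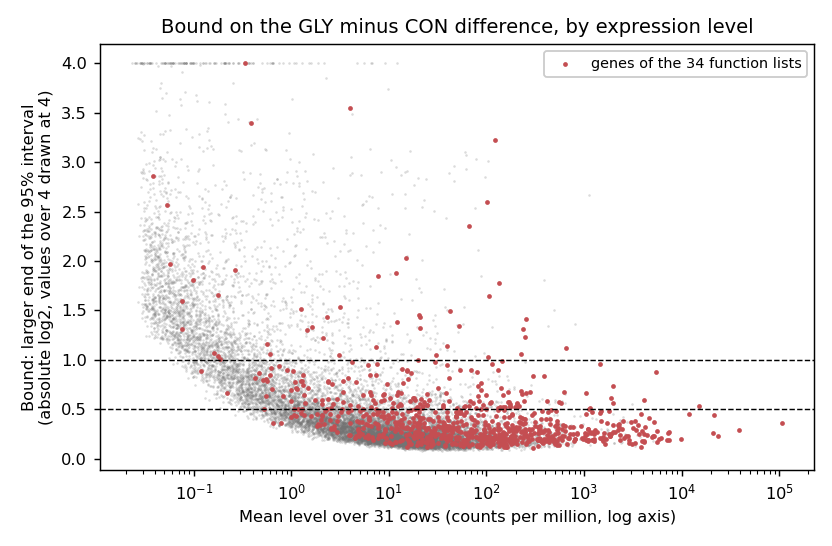
Each point is 1 gene: the horizontal axis is its mean level over the 31 cows in CPM (log axis), and the vertical axis is its bound, the larger end of the 95% interval of the GLY minus CON log2 fold change, with values over 4 drawn at 4. Dashed lines mark 0.5 and 1, red points are genes of the 34 function lists, and from 1 CPM upward 86.1% of genes lie under the lower line.

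Between 11675775 and 36675542 reads per cow fell in genes, with a median of 20722019 in GLY and 17532657 in CON. With the log2 of that total as a further covariate, chosen after seeing the data, 0 genes were called and 691 had an unadjusted p under 0.05. GLYLC cow 912 stood apart: it held the highest level of all 31 cows in 1767 of 11835 genes and the lowest in 1796, against medians of 294 and 285 over the other 30 cows. Its library held 206 CPM of FABP2, the fatty acid binding protein of enterocytes, which was at 0.163 CPM or less in every other cow and had no read in 24 cows. It also had the lowest albumin (ALB) level, 42900 CPM, against 74791 CPM or more elsewhere. Without cow 912 the genes at an unadjusted p under 0.05 numbered 196 higher (1.24%) and 239 lower (1.52%), 2.76% in all, 49.2% of genes had a value below 0, and 0 were called. The p-values measure only the spread between these cows. In a bulk biopsy, fewer cells of a type and less RNA per cell cannot be told apart.

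The cholesterol list held 32 genes, of which 31 were tested, all above 1 CPM. The list had 17 members lower and 0 higher at an unadjusted p under 0.05, a share of 54.8% lower against 1.45% over all genes, and its median log2 fold change was -0.25 against 0.00. The pathway enzymes were set apart from its regulators and transporters by their textbook roles, after the values were seen. At the head of the pathway, HMGCS1 makes HMG-CoA. HMGCS1 ranged from 110 to 759 CPM in CON with a median of 301, and from 60.1 to 430 CPM in GLY with a median of 145. The ranges overlapped widely, and the highest value was that of a CONHC cow. The log2 fold change was -0.75 (SE 0.274, interval -1.31 to -0.19).

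Several later enzymes had smaller standard errors and smaller p-values. IDI1, which isomerises isopentenyl diphosphate, ranged from 123 to 227 CPM in CON (median 166) and from 85.2 to 197 CPM in GLY (median 117). Of the 15 GLY cows, 12 lay below the median of the CON cows on the same CFP. Its log2 fold change was -0.42 (SE 0.111), with an unadjusted p of 0.00074 and an adjusted p of 0.590 in the edgeR test. LSS, the cyclase that forms lanosterol, had a mean of 136 ± 31.3 CPM (SD, n = 15) in GLY and 172 ± 21.6 CPM (SD, n = 16) in CON, a log2 fold change of -0.34 (SE 0.0928). LSS was called in edgeR only when GLYLC cow 209, the highest cow, was left out (-0.40, adjusted p 0.0842), against an adjusted p of 0.590 with all cows. HSD17B7, a reductase of the sterol ring, had 73.1 ± 15.5 CPM in GLY and 94.6 ± 17.7 CPM in CON (SD, n = 15 and 16), and all 15 GLY cows were below the CON median of their own CFP. DHCR7, which makes cholesterol from its immediate precursor, had a log2 fold change of -0.56 (SE 0.160), and FDPS, which makes farnesyl diphosphate, had -0.35 (SE 0.108). Other enzymes at an unadjusted p under 0.05 were SQLE (-0.50), MSMO1 (-0.40), CYP51A1 (-0.37), FDFT1 (-0.35), NSDHL (-0.32), MVK (-0.27), ACAT2 (-0.25) and EBP (-0.18), values being log2 fold changes. PMVK alone of the 20 enzymes had a value above 0, at 0.05.

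**Figure D2:**
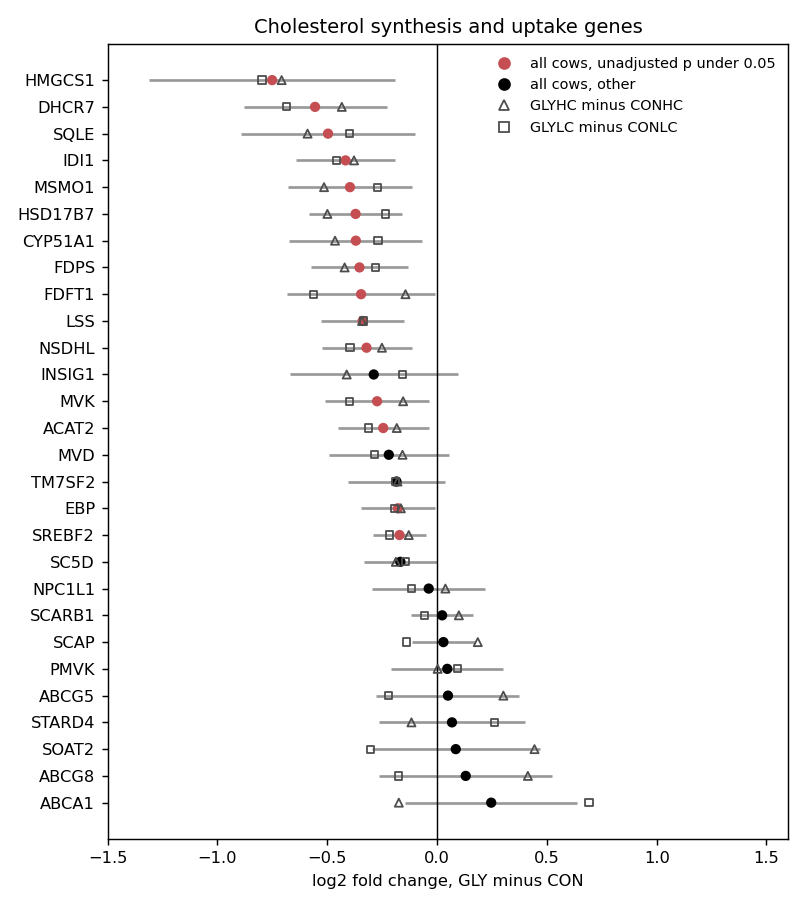
Log2 fold change, GLY minus CON, of 28 of the 31 tested genes of cholesterol synthesis and uptake. Filled circles give the estimate over all cows with its 95% interval as a grey line (red: unadjusted p under 0.05), and open triangles and squares give the values within high and low concentrate. The 15 red genes lie between -0.75 and -0.17.

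Among the regulators, receptors and exporters of the list, SREBF2 alone had an unadjusted p under 0.05 over all cows. It had a log2 fold change of -0.17 (SE 0.0588, unadjusted p 0.00668) and a bound of 0.29. INSIG1, which holds SREBP-2 in the endoplasmic reticulum and is itself one of its targets, had -0.29 with an unadjusted p of 0.136. Cow 912 was the highest cow in INSIG1, and without it the value was -0.41 (unadjusted p 0.0245). The sterol exporters ABCG5 (0.05) and ABCG8 (0.13) and the cholesterol efflux pump ABCA1 (0.25) had values above 0 over all cows, with bounds of 0.38, 0.53 and 0.64. Each changed sign between concentrate levels. Within HC and within LC the values were 0.30 and -0.22 for ABCG5, 0.41 and -0.18 for ABCG8, and -0.17 and 0.69 for ABCA1. Cow 912 was also the highest cow in ABCA1, whose value without it was 0.08.

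High and low concentrate cows are separate animals, and most of the enzymes were lower in value in both. The list and the grouping were made with values of these same cows known, so neither level is independent evidence. The enzymes share the regulator SREBP-2, so their counts are not counts of independent genes. Of the 20 enzymes, 19 had a value below 0 within HC and 19 within LC, the same 19 in both, with medians of -0.31 and -0.30, where 48.3% and 50.6% of all genes had a value below 0. At an unadjusted p under 0.05, 7 were lower within HC (background 1.31%) and 8 within LC (background 1.94%), and the interaction with CFP reached an unadjusted p under 0.05 for 0 of them. Summed over the 20 enzymes, the level ranged from 3886 to 7405 CPM in CON with a median of 4932, and from 2943 to 5565 CPM in GLY with a median of 3811. Without cow 912 the count of enzymes at an unadjusted p under 0.05 was 14 over all cows and 5 within LC (background 1.79%, with 51% of genes below 0), and all 20 had values below 0 over all cows. For the list of 31 genes the count ranged from 13 (without CONHC cow 134, the highest cow in HMGCS1) to 20 when each cow was left out in turn. DESeq2 gave 18 and limma-voom 20 on all 31 cows.

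**Figure D3:**
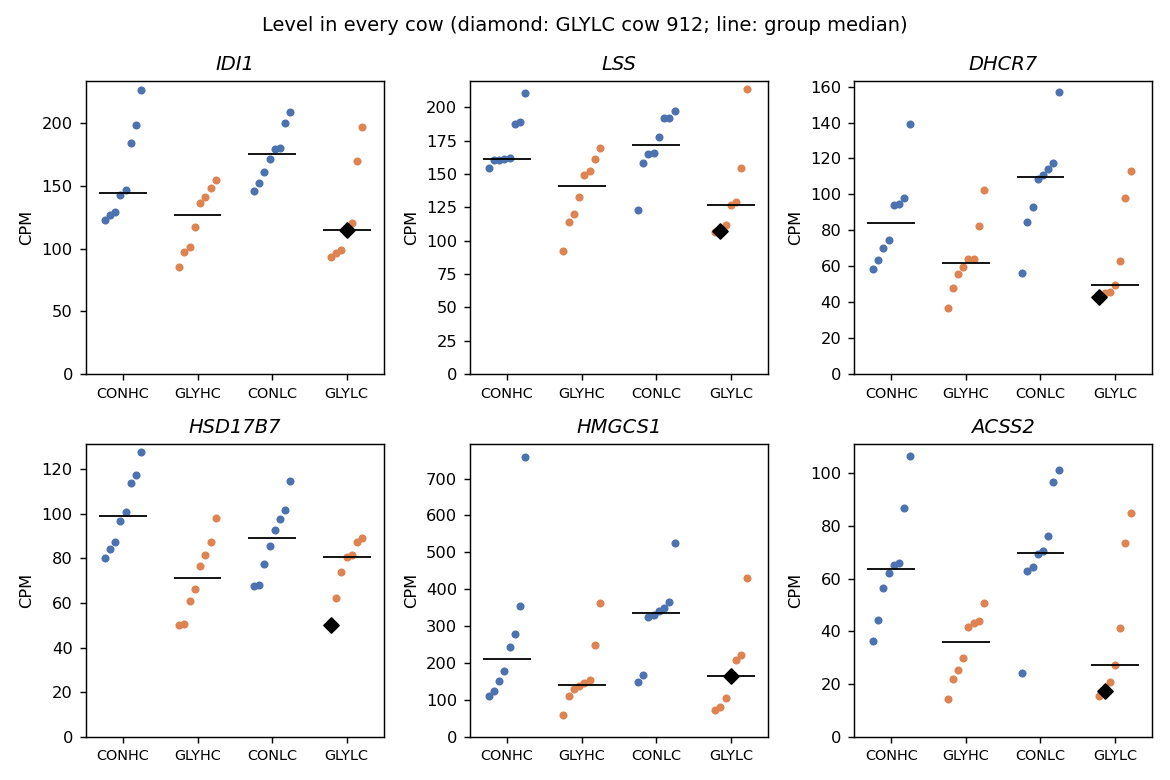
Level in CPM (linear axis from 0) of 5 cholesterol pathway enzymes and of ACSS2 in each of the 31 cows, by feeding group. Points are cows, black lines are group medians and the black diamond is GLYLC cow 912; the GLY median is below the CON median within both concentrate levels in all 6 genes, with overlapping ranges.

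Hepatocyte markers stood beside this difference with a median log2 fold change of -0.05, 9 of 10 of them below 0, and without cow 912 with a median of -0.0061, 5 of 10 of them below 0. Markers of stellate cells and fibroblasts had values below 0 in 9 of 10 genes, 3 of them at an unadjusted p under 0.05 (1 without cow 912). Among these, COL1A1 reached 434 CPM in CONLC cow 103 and at most 42.4 CPM in any other CON cow. Without that cow the cholesterol list still had 16 members lower at an unadjusted p under 0.05. The part of other cell types in the difference was not tested.

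Some neighbouring lipid genes were also lower in value. ACSS2, the cytosolic enzyme that turns acetate, a main ruminant fuel, into acetyl-CoA, had the lowest p of all genes at a lower level in GLY above 1 CPM. Its level was 68.1 ± 22.4 CPM in CON (SD, n = 16) and 36.8 ± 20.8 CPM in GLY (SD, n = 15), with a log2 fold change of -0.88 (SE 0.227, interval -1.35 to -0.42), -0.95 within HC and -0.81 within LC. All 8 GLYHC cows were below the CONHC median, and 5 of 7 GLYLC cows were below the CONLC median. RDH11, a retinal reductase, had -0.40 (SE 0.108). In the list of lipogenesis and triglyceride synthesis, 4 of 29 genes were lower (1.45% over all genes) and 0 higher at an unadjusted p under 0.05: ACLY (-0.30), which makes acetyl-CoA from citrate, the desaturases FADS2 (-0.54) and FADS1 (-0.52), and the elongase ELOVL6 (-0.39). FASN (-0.55, unadjusted p 0.0674) and SCD (-0.35, unadjusted p 0.203) missed that threshold. Their bounds were 1.14 and 0.89, and the list's median was -0.09 (-0.036 without cow 912, with 3 genes lower). Within HC the list's median was 0.03, with 13 of 29 genes below 0. There 0 were lower (background 1.31%) and 1 higher (1.6%) at an unadjusted p under 0.05. Within LC the median was -0.19, with 22 of 29 below 0, 5 lower (background 1.94%) and 0 higher (3.71%).

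**Figure D4:**
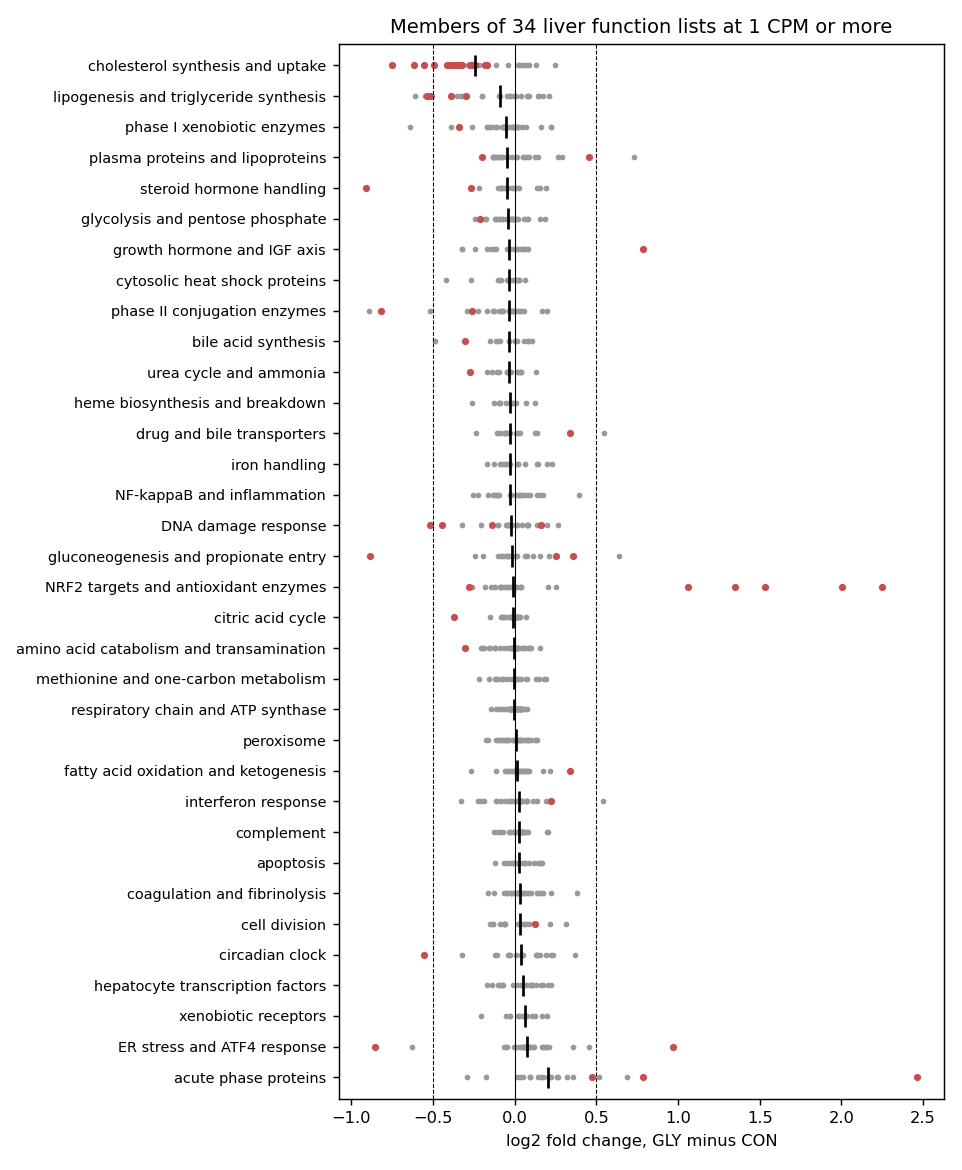
Log2 fold change, GLY minus CON, of every member at 1 CPM or more of 34 liver function lists, ordered by the median of all their tested members (black tick). Red points had an unadjusted p under 0.05, dashed lines mark -0.5 and 0.5, and the medians run from -0.25 for cholesterol synthesis and uptake to 0.21 for acute phase proteins.

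Over all 34 lists, 844 genes were tested, of which 19 were higher (2.48% over all genes) and 39 lower (1.45% over all genes) at an unadjusted p under 0.05. Without cow 912 these were 8 and 35. Of the 808 at 1 CPM or more 775 were bounded under 1. Leaving the cholesterol list aside, 19 were higher and 22 lower of 813, or 8 and 19 without cow 912, and the median log2 fold change was -0.00. In 11 lists no member reached an unadjusted p under 0.05. The lists overlap in some genes.

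Genes for handling foreign compounds had median bounds of 0.29 for phase I enzymes and 0.31 for conjugation enzymes, against 0.26 over all genes at 1 CPM or more. Of 34 phase I genes at 1 CPM or more, 28 were bounded under 0.5 and 32 under 1. CYP1A1 and CYP1A2, the targets of the aryl hydrocarbon receptor, had log2 fold changes of 0.00 (interval -0.25 to 0.26) and -0.08 (interval -0.29 to 0.13). CYP2E1, the ethanol-inducible enzyme and the most abundant of the list, was at 5743 CPM in the median CON cow and 5583 CPM in the median GLY cow, and its interval ran from -0.28 to 0.25. CYP3A4, a target of the pregnane X receptor, had -0.11 with a bound of 0.34, and POR, the reductase that serves all microsomal P450 enzymes, had 0.04 with a bound of 0.24. CYP2C18 had the smallest p of the members above 1 CPM, with -0.34 (interval -0.64 to -0.03, unadjusted p 0.0315). Without cow 912, 0 of the tested phase I genes had an unadjusted p under 0.05. The widest bound was 1.33, that of a gene named ADH6 (ENSBTAG00000006986) at 1.63 CPM, while the abundant gene of the same name (ENSBTAG00000006991, 1629 CPM) was bounded at 0.15.

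Of the 14 xenobiotic receptor genes at 1 CPM or more, 13 were bounded under 0.5. The receptor genes AHR (0.13), NR1I2 (0.17), which encodes the pregnane X receptor, and NR1I3 (-0.05) had bounds of 0.31, 0.34 and 0.21. Of 27 conjugation genes at that level, 16 were bounded under 0.5 and 24 under 1. SULT2A1 (-0.08), which sulphates steroids and bile acids, and UGT1A1 (-0.13), which glucuronidates bilirubin, had bounds of 0.25 and 0.30. GSTA5, a glutathione transferase at 2.31 CPM, had -0.82 (interval -1.43 to -0.21, unadjusted p 0.0108). A gene of the name GSTA3 (ENSBTAG00000032642) had the widest bound, 2.03, and the abundant gene of that name (ENSBTAG00000021516, 1149 CPM) had -0.26 (unadjusted p 0.0488). Without cow 912 the latter had -0.20 (unadjusted p 0.0969). These alpha-class copies may share reads. Among transporters, 14 of 17 were bounded under 0.5, including the bile salt pump ABCB11 (0.44) and the conjugate export pump ABCC2 (0.23), in both cases the bound. The carnitine transporter SLC22A5 was the only transporter at an unadjusted p under 0.05, at 0.34 (unadjusted p 0.0494), and without cow 912 there were 0.

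Of the 34 lists, the respiratory chain was the only one with every member at 1 CPM or more bounded under 0.5. In the respiratory chain and ATP synthase, 47 of 47 genes were bounded under 0.5, the widest being the mitochondrial gene COX1 at 0.30, and 0 had an unadjusted p under 0.05. In the citric acid cycle 25 of 26 were bounded under 0.5, PDK4, an inhibitor of pyruvate dehydrogenase, being the other at 0.73. PDK4 was the only member at an unadjusted p under 0.05 (-0.37, interval -0.73 to -0.01), and without cow 912 there were 0. In fatty acid oxidation and ketogenesis 24 of 28 genes were bounded under 0.5 and all 28 under 1. CPT1A, which admits fatty acids to the mitochondrion, had 0.07 (bound 0.36). In peroxisomes the count was 31 of 32. Gluconeogenesis gave 17 of 23 under 0.5 and 21 under 1. PCK1, the gatekeeper enzyme of the pathway, was at 3336 CPM in the median CON cow and 3793 CPM in the median GLY cow with a log2 fold change of 0.01 (bound 0.34). G6PC, which releases free glucose, had -0.24 (bound 0.58). PC, which carboxylates pyruvate, was among the 2 members with higher values at an unadjusted p under 0.05, at 0.36 (interval 0.05 to 0.67, unadjusted p 0.0241), the other being LDHB.

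In nitrogen handling, of 15 urea cycle and ammonia genes, 13 were bounded under 0.5 and all 15 under 1. SLC25A15, the mitochondrial ornithine carrier, was the only one at an unadjusted p under 0.05 (-0.27, unadjusted p 0.0420). CPS1, which commits ammonia to urea, was at 4035 CPM in the median CON cow and 4119 CPM in the median GLY cow, with an interval from -0.25 to 0.16, and ASS1 had one from -0.22 to 0.17. Of 33 genes of amino acid breakdown, 26 were bounded under 0.5 and all 33 under 1. TAT, the tyrosine transaminase, had -0.30 (unadjusted p 0.0303). In this list and in that of the urea cycle, 0 genes had an unadjusted p under 0.05 without cow 912. In methionine and one-carbon metabolism 20 of 23, in heme synthesis and breakdown 13 of 14 and in iron handling 14 of 17 genes were bounded under 0.5, with 0 members at an unadjusted p under 0.05 in each of these 3 lists. HMOX1, the inducible heme oxygenase, had -0.26 (interval -0.53 to 0.00), and the iron hormone HAMP had -0.03 (interval -0.57 to 0.52).

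The oxidative stress list held enzymes and metallothioneins, of which the latter ranged widely between cows. CAT, SOD1, NQO1 and GCLC had log2 fold changes of -0.06, -0.04, -0.15 and -0.08, with bounds of 0.26, 0.15, 0.37 and 0.47. Catalase, superoxide dismutase, a quinone reductase and the limiting enzyme of glutathione synthesis are their products. Of 30 genes tested, 5 were higher at an unadjusted p under 0.05, 4 of them metallothioneins, the small cysteine-rich proteins that bind zinc and copper. MT1A ranged from 4.99 to 125 CPM in CON (median 28.1) and from 11.99 to 1850 CPM in GLY (median 64.9), with a log2 fold change of 2.002 (SE 0.602). MT2A had a median of 76.4 CPM in CON and 131 CPM in GLY and a log2 fold change of 1.06 (SE 0.353). GPX3, a secreted glutathione peroxidase, had 1.54 (SE 0.520). The highest value of all 3 genes was that of cow 912, and without it the log2 fold changes were 0.93, 0.48 and 0.77, with 0 genes of the list higher at an unadjusted p under 0.05. TXNIP, which binds thioredoxin and answers to glucose, had -0.28 with and without that cow (unadjusted p 0.00887 and 0.0119).

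In the list of endoplasmic reticulum stress and the ATF4 response, 27 of 30 genes were bounded under 1. HSPA5, the chief chaperone of that compartment, had 0.05 (bound 0.55). DDIT4, an inhibitor of mTOR signalling, was at a median of 26.6 CPM in CON and 10.1 CPM in GLY with a log2 fold change of -0.85 (interval -1.45 to -0.26), and FGF21, a hormone of fasting and stress, had 0.97 with a bound of 1.88 (0.54 without cow 912). Heat shock genes had 15 of 17 bounds under 0.5 and 0 members at an unadjusted p under 0.05. Without cow 912, 2 of the 17 were lower at that threshold (1.52% over all genes) and 0 higher, with 13 below 0 (49.2% over all genes). Of 26 DNA damage response genes tested, 3 were lower (1.45% over all genes) and 1 higher (2.48%) at an unadjusted p under 0.05. Without cow 912 these were 4 (1.52%) and 1 (1.24%). Among the lower genes, CHEK1, a kinase of the replication checkpoint, had -0.52 (interval -0.81 to -0.23, unadjusted p 0.00106), with 14 of 15 GLY cows below the CON median of their CFP. CDKN1A, which arrests the cell cycle, had -0.14 (bound 0.51), and -0.37 (unadjusted p 0.00793) without cow 912, its highest cow. All 25 genes of this list at 1 CPM or more were bounded under 1, as were all 20 apoptosis genes. BCL2, which restrains apoptosis, was just under 1 CPM and had 0.50 (interval 0.11 to 0.90). Of 20 cell division genes at that level, 19 were bounded under 1, and MCM7, part of the replicative helicase, had 0.13 (unadjusted p 0.0350).

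Acute phase proteins, which the liver secretes in inflammation, had the highest median of the lists, 0.21, with 20 of 22 genes above 0, and a median of 0.10 without cow 912. At an unadjusted p under 0.05, 3 genes were higher and 0 lower. ORM1, an acid glycoprotein, ranged from 1941 to 9226 CPM in CON (median 4475) and from 3094 to 12120 CPM in GLY (median 5869), with a log2 fold change of 0.47 (interval 0.07 to 0.87). Its values were 0.56 within HC and 0.38 within LC. HP, haptoglobin, the main acute phase protein of cattle, ranged from 16.6 to 4435 CPM in CON (median 152) and from 9.75 to 19491 CPM in GLY (median 459). Its log2 fold change was 2.46 (SE 0.883, interval 0.66 to 4.26), and 1.09 (unadjusted p 0.156) without cow 912. SOCS3, a feedback inhibitor of cytokine signalling, had 0.78 and a highest value of 17.8 CPM in a GLYHC cow. Of the serum amyloid genes, SAA3 had -0.29 and SAA4 0.32, with unadjusted p of 0.378 and 0.319.

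The acute phase genes were also compared within each concentrate level. Within LC, 14 of 22 were higher in GLY at an unadjusted p under 0.05 (background 3.71%), with a median log2 fold change of 0.55. Within HC, 0 were higher (background 1.6%) and the median was -0.08. The interaction reached an unadjusted p under 0.05 for 9 of the 22 genes (4.21% over all genes) and passed adjustment for 0. LBP, which binds bacterial lipopolysaccharide, had medians of 162, 177, 136 and 375 CPM in CONHC, GLYHC, CONLC and GLYLC. Its log2 fold change was -0.20 within HC and 1.63 within LC (interaction p 0.00864, not adjusted). FGB, a fibrinogen chain, had -0.20 and 0.54. Without cow 912, 7 of the 22 genes were higher within LC (background 1.28%) and the median was 0.36. Over all cows the count of 3 was 1 without cow 912 or without GLYHC cow 32, 5 without GLYHC cow 154, GLYLC cow 42 or GLYLC cow 544, 7 without GLYHC cow 159 and 8 without CONHC cow 144.

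**Figure D5:**
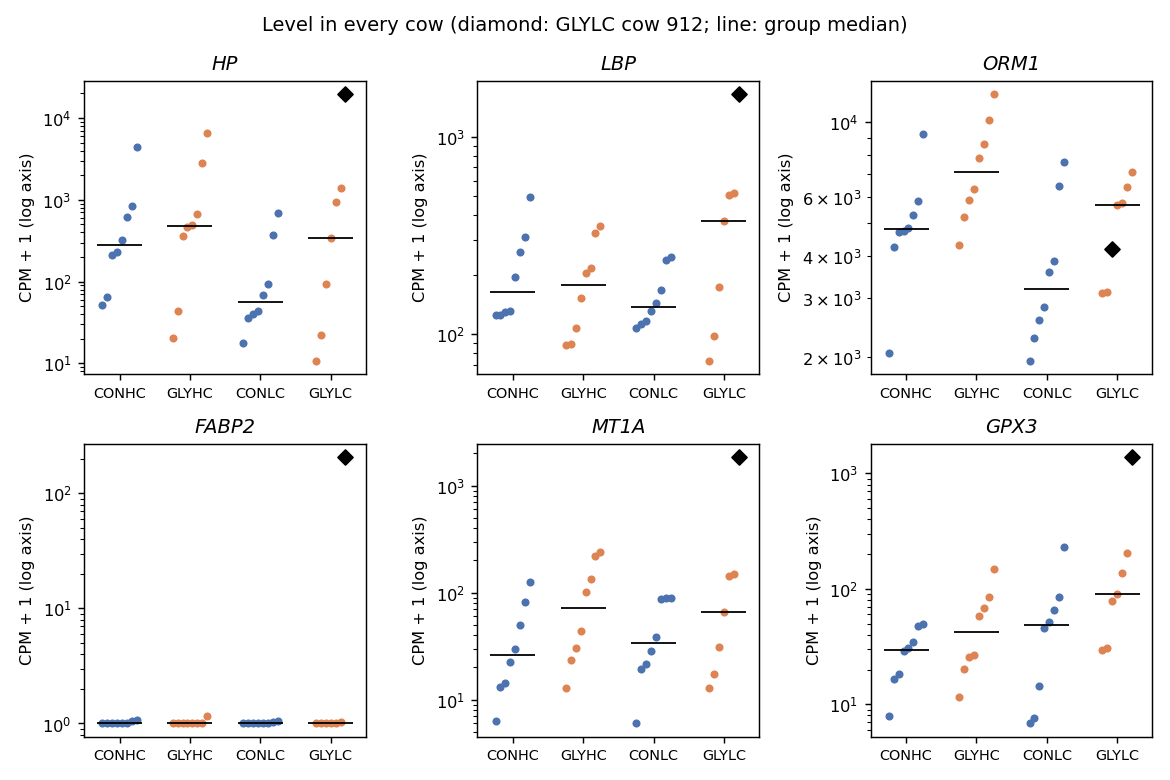
Level in every cow as CPM plus 1 on a log axis for the acute phase genes HP, LBP and ORM1, the enterocyte gene FABP2, the metallothionein MT1A and GPX3, by feeding group. Points are cows, black lines are group medians and the black diamond is GLYLC cow 912, which is the highest of all 31 cows in each of these genes except ORM1.

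Complement and coagulation genes each had a median log2 fold change of 0.03 over all cows. Complement had 25 of 28 bounds under 0.5 and coagulation 28 of 31, with 0 members at an unadjusted p under 0.05 in either. C3, the central complement protein, was at 20781 CPM in the median CON cow and 21180 CPM in the median GLY cow (bound 0.26), and F2, prothrombin, had a bound of 0.20. Within LC, 4 of the 31 coagulation genes were higher in GLY at an unadjusted p under 0.05 (3.71% over all genes), and the interaction reached that level for 6 of the 31 (4.21% over all genes). Without cow 912, 5 of the 31 were higher within LC (1.28% over all genes) and 0 lower. In the NF-kappaB list 22 of 23 genes were bounded under 1 and 0 had an unadjusted p under 0.05. In the interferon list 27 of 28 were bounded under 1, and STAT2, a transducer of the type I interferon signal, had 0.22 (unadjusted p 0.0277). Without cow 912, 0 of the 28 were higher and 2 lower (1.52% over all genes) at an unadjusted p under 0.05. Then 21 of the 28 had values below 0 (49.2% over all genes). With all cows, 22 were below 0 within HC (48.3% over all genes) and 7 within LC (50.6%). IFI6, an interferon-induced gene, was at 141.5 and 122.9 CPM in 2 GLYHC cows and at no more than 46.6 CPM in the other cows, and its bound of 1.32 was the widest of that list.

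Other secretory and endocrine functions were bounded to a varied degree. ALB had a log2 fold change of -0.13 (interval -0.36 to 0.10). Of the apolipoproteins of high-density lipoprotein, APOA1 was higher and APOA2 lower in value, at 0.46 (interval 0.07 to 0.84) and -0.20 (interval -0.38 to -0.02), both at an unadjusted p under 0.05, and at 0.30 and -0.15 without cow 912 with neither under 0.05. CYP7A1, the rate-limiting enzyme of bile acid synthesis, had a median of 127 CPM in CON and 81.1 CPM in GLY, with a log2 fold change of -0.49 (interval -1.03 to 0.05, unadjusted p 0.0760). Of the bile acid list, 13 of 15 genes were bounded under 0.5. KLB, the co-receptor for FGF19 and FGF21, had -0.31 (unadjusted p 0.0433), and -0.24 (unadjusted p 0.0811) without cow 912. IGF1 had -0.24 (bound 0.58) and its regulator GHR, the growth hormone receptor, -0.05 (bound 0.25). STS, steroid sulfatase, ranged from 16.5 to 131 CPM in CON (median 56.6) and from 4.09 to 52.6 CPM in GLY (median 29.9), with a log2 fold change of -0.91 (interval -1.49 to -0.32) and -0.81 without cow 912. HSD17B2, which inactivates sex steroids, had -0.27 (interval -0.47 to -0.06). ARNTL, the core activator of the circadian clock, had -0.55 (interval -0.97 to -0.13). Hepatocyte transcription factors had 0 of 21 members at an unadjusted p under 0.05 and 19 bounded under 0.5.

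Several markers of other tissues differed between single libraries. Of 7 intestinal epithelium genes tested, 6 were higher in GLY at an unadjusted p under 0.05. Without cow 912 only 3 were still tested, and 0 of these were higher at that threshold. The others, among them FABP2 and BCO1, reached 20 reads only with that cow, so their loss was fixed in advance. The summed level of that list was 451 CPM in cow 912 and at most 105 CPM in each of the other cows, and smooth muscle genes summed to 1776 CPM in cow 912. The epidermal keratin genes KRT1 and KRT10 had log2 fold changes of 4.02 and 0.99, with KRT1 at 4.66, 2.64 and 1.21 CPM in 3 GLYHC cows and at 0.0786 CPM or less in CON. Genes of macrophages, endothelium and bile duct had 0 members at an unadjusted p under 0.05. Of the 10 genes above 1 CPM with the smallest p at a higher level in GLY, FABP2, BCO1, ACTG2, CLCA4, TMPRSS15, ATP6V1C2 and PLB1 were at 29.5 CPM or more in cow 912 and at most 2.01 CPM in each other cow. CLCA4 and TMPRSS15 had no read in any CON cow and therefore no usable bound. RAD21L1, a meiotic cohesin subunit, and MIGA2, an outer mitochondrial membrane protein, were higher at 0.58 and 0.18, with unadjusted p of 0.000207 and 0.00682 without that cow.

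ERRFI1, LURAP1L, MCFD2 and TPCN2 are 4 of the genes that the study singled out from the high concentrate groups of these same cows. Their HC values are thus not independent evidence. Nor are their values over all cows or the interaction, which both contain the HC cows. Over all cows their log2 fold changes were -0.49 (interval -0.97 to -0.00), -0.49 (interval -0.90 to -0.08), -0.06 (interval -0.22 to 0.09) and 0.22 (interval 0.01 to 0.44). ERRFI1 encodes an inhibitor of the epidermal growth factor receptor, MCFD2 a cargo receptor for coagulation factors, and TPCN2 a lysosomal cation channel. In the LC cows, which were not used to choose them, the values were 0.13, -0.12, 0.19 and -0.07, with 0 of the 4 at an unadjusted p under 0.05. Cow 912 was the highest of all cows in ERRFI1. Without it, 0 of the 4 reached that threshold within LC, and their median there went from 0.03 to -0.07. ERRFI1 over all cows, HC included, was then -0.63 (unadjusted p 0.00789). The interaction with CFP had an unadjusted p of 0.00899 for ERRFI1, 0.0629 for LURAP1L, 0.000830 for MCFD2 and 0.00592 for TPCN2, and none passed adjustment over all genes.

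Within LC alone 10 genes were called (0.0628%) and within HC 0 (0%), with 899 (5.65%) and 464 (2.92%) genes at an unadjusted p under 0.05. Cow 912 was the highest of all 31 cows in 9 of the 10, among them FABP2 and BCO1. The other was GPT2, a mitochondrial alanine aminotransferase, at -0.88 within LC and 0.45 within HC. Without cow 912, GPT2 had -0.81 within LC (unadjusted p 0.000246), 0 genes were called within LC and 484 (3.07%) had an unadjusted p under 0.05. The interaction itself gave 0 calls (0%) in edgeR, where 670 genes (4.21%) had a p under 0.05 before adjustment, and 1 call, GPT2, in DESeq2.

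Across the whole transcriptome, GLY took 2.22% of the total sum of squares of log2 CPM over 11835 genes after CFP (one-sided p = 0.923, 100000 permutations of GLY and CON within CFP), and CFP took 4.85% after GLY (p = 0.0874, 100000 permutations within treatment). With each gene scaled to unit variance, the same permutations gave 2.48% for GLY (p = 0.867) and 5.44% for CFP (p = 0.0218).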

How the data were processed

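RNA from 31 liver biopsies was sequenced by the authors with a stranded mRNA library kit. Reads were trimmed by the authors with Trim Galore (lowest Phred score kept, 20), aligned with HISAT2 2.1.0 to UMD3.1 and counted per gene with HTSeq 0.8.0, as the paper's methods state. Whether the counting used strand is not given in the sources used here, so overlapping antisense genes cannot be told apart. The deposited raw counts were used, and a second deposited table of normalized signal was not used. Every column was matched to a cow by its label.

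Counts were analysed in R 4.3.3 with edgeR 4.0.16: genes with at least 20 reads over all cows, TMM normalization, a model with CFP and GLY as terms, and the quasi-likelihood test with Benjamini-Hochberg adjustment over 15916 genes. A call needed an unadjusted p under 0.05 and an adjusted p under 0.1. The 95% interval of each log2 fold change came from its standard error. Values within HC and LC and the interaction came from a 4-group model. The share of variance was tested by 100000 permutations. Alternatives were DESeq2 1.42.0, limma-voom (limma 3.58.1), other normalizations, filters and covariates, and leaving out each cow. The scripts were tested on simulated data.

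The members and gene lists were chosen with earlier results of these data known. Named genes were the 10 with the smallest p in each direction with a symbol and at least 1 CPM, the member of each list with the smallest p, the highest level or the widest bound, a set of well-known liver genes, the genes the study singled out, and genes called. Other genes named were chosen after their values were seen. Some genes that these rules name are counted in their lists and are not reported here one by one. The only reference at hand was a table of gene names of another assembly, so no coordinates are given.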

Additional observations from a re-analysis of the deposited data

Results flagged for a closer look

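Within each feeding group of 7 or 8 cows, the highest and the lowest level of each named gene were set against Dixon's 95% critical value. The levels were compared as the log2 of CPM plus 1. On that scale HP at 19491 CPM and GPX3 at 1382 CPM in cow 912 were not flagged. Of 464 groups, 51 held such a cow, where chance gives about 1 in 20, and 21 of them were in GLYLC cow 912. The genes were chosen partly for a small p or a wide bound, so this count is a description and not a test. All levels below are given in CPM.

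Far above the other GLYLC cows, cow 912 had ACTG2 at 353, APOA1 at 714, ATP6V1C2 at 29.5, BCO1 at 46.8, CLCA4 at 39.8, FABP2 at 206, HSPA5 at 852, MT1E (ENSBTAG00000038706) at 73.2, PLB1 at 40.7, RAD21L1 at 49.7 and TMPRSS15 at 34.4. Far below them, it had ABCB11 at 71.9, ALB at 42900, CAT at 3244, CPS1 at 2234, CYP1A1 at 456, CYP1A2 at 2024, CYP2E1 at 2142, SAA3 at 1.83, STS at 4.09 and UGT1A1 at 511.

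CONHC cow 133 stood above the rest of its group with KRT1 at 0.056. CONHC cow 134 stood above the rest of its group with INSIG1 at 490. CONHC cow 144 stood above the rest of its group with SOCS3 at 7.91. CONHC cow 170 stood above the rest of its group with ADH6 (ENSBTAG00000006986) at 7.66 and PMVK at 52.6. CONHC cow 170 stood below the rest of its group with BCL2 at 0.176. CONHC cow 41 stood above the rest of its group with IFI6 at 46.6. CONLC cow 145 stood above the rest of its group with F2 at 1950. CONLC cow 169 stood above the rest of its group with LURAP1L at 13.6. CONLC cow 169 stood below the rest of its group with ACAT2 at 139, ACSS2 at 24.1, EBP at 124, FDPS at 76.3, LSS at 123 and SQLE at 87. CONLC cow 260 stood above the rest of its group with GABRR2 at 0.103. CONLC cow 260 stood below the rest of its group with GHR at 108. CONLC cow 60 stood above the rest of its group with MIGA2 at 17.1. CONLC cow 941 stood below the rest of its group with CYP3A4 at 122. GLYHC cow 117 stood above the rest of its group with BCO1 at 0.0714. GLYHC cow 154 stood above the rest of its group with CLCA4 at 0.0326, FABP2 at 0.163, GSTA3 (ENSBTAG00000032642) at 47 and TMPRSS15 at 0.0326. GLYHC cow 32 stood above the rest of its group with CPT1A at 245 and SOCS3 at 17.8. GLYHC cow 32 stood below the rest of its group with FADS2 at 706. GLYHC cow 37 stood above the rest of its group with ALB at 130521. GLYLC cow 102 stood above the rest of its group with GABRR2 at 3.51. GLYLC cow 905 stood above the rest of its group with KRT1 at 0.0532. For KRT1 (cows 133 and 905), BCO1 (cow 117) and FABP2, CLCA4 and TMPRSS15 (cow 154), no other cow of the group had a read. These flags lie at 0.163 or less, rest on few reads and are counted among the 51.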

How the results depend on the processing

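No paired analysis was possible because the cows of different groups are different animals and share no number. No gene was called under any edgeR or limma setting on all cows, with 402 to 834 genes at an unadjusted p under 0.05, whereas DESeq2, with or without independent filtering, called 1 gene over all cows and 1 for the interaction. Leaving out each cow in turn gave 0 to 6 calls for GLY, 0 for the interaction, 10288 to 10593 genes bounded under 0.5, 13071 to 13224 under 1, 13 to 20 lower cholesterol genes, 1 to 8 higher acute phase genes and a GLY variance share of 2.102% to 2.646%. The calls came without CONHC cow 41 or without any 1 of 6 GLYLC cows other than cow 912, and were FABP2, SLC28A2, GABRR2, SLC5A4, MUC13, ENSBTAG00000037826 and, without GLYLC cow 209 alone, LSS (-0.40, adjusted p 0.0842 in edgeR). Simultaneous intervals bounded 4038 genes under 0.5. The limma-voom count of higher acute phase genes was 1.

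Some log2 fold changes close to 0, or resting on 1 cow, reversed, and the cause was not tested. Without cow 912 they were 0.0109 for ADH6 (ENSBTAG00000006991), 0.0227 for ASS1, 0.0017 for CPS1, 0.0496 for CYP2E1, -0.28 for HSPA5 and -0.0282 for PMVK. With limma-voom they were -0.0041 for ABCG5, -0.0308 for CYP1A1 and -0.074 for HSPA5. With DESeq2 they were -1.37 for BCO1, -0.10 for CLCA4 and -0.0283 for FABP2. Depth limits genes under 1 CPM most, of which 6.57% were bounded under 0.5.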
